A study of Ovis aries with 2 samples.

Results

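The loci of sheep chromosome 14 were described in 2 poly(A) RNA sequencing libraries of subcutaneous fat, 1 from thin-tailed and 1 from fat-tailed sheep. Every row of the deposited tables placed on chromosome 14 with a span (end minus start) of at least 200 bp was taken. This gave 1583 of the 34927 loci in the thin-tailed table and 1641 of the 36511 in the fat-tailed table. All animals were Iranian native sheep, slaughtered at 7 months after weaning at 90 days and 120 days on 1 diet, and none was treated. The tail type was read from the library titles. The source label calls the tissue of both libraries subcutaneous fat, so the word Fat in 1 title could also name the tissue, and if it did, no direction below would hold. The series text mentions duplicates, but 1 library of each tail type was analysed here, and how many animals went into it is not stated. With 1 library per tail type no difference below has a replicate check or a p-value. The chromosome was proposed because its median ratio between these libraries was the highest, so its loci were in effect selected on the FPKM ratios of these same libraries, and those ratios are given as a description.

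Fat-tailed sheep keep a large depot of fat in the tail, and adipose tissue stores triglyceride in adipocytes and releases it by lipolysis. In the RefSeq gene table of the assembly ARS-UI_Ramb_v3.0, sheep chromosome 14 carries CEBPA, a transcription factor of adipocyte differentiation, LIPE, the hormone-sensitive lipase of fat cells, and APOE, an apolipoprotein of lipid transport. It also carries FTO, an RNA demethylase known from human obesity genetics, with its neighbours RPGRIP1L, IRX3 and IRX5, as well as TGFB1, a growth factor, and MC1R, the melanocortin receptor of coat colour. That gene table holds no Ensembl identifiers, so the 705 on chromosome 14 in the deposited tables could not be looked up in it. No build is named for the deposited tables. No locus could therefore be tied to any of these genes or to a fat-cell marker, and loci are given by position as deposited, counted from 1.

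The values are FPKM, fragments scaled to transcript length and library size, each with a deposited lower and upper bound, given in brackets below. Of the chromosome 14 loci, 1094 (thin-tailed) and 1117 (fat-tailed) had been assembled from the reads of 1 library, and 489 and 524 carried an Ensembl sheep identifier. Of the latter, 320 (65.4%) and 352 (67.2%) stood at 0, which can also be a failed estimate. The assembled loci at 0 numbered 55 (5.03%) and 60 (5.37%). Loci with FPKM of 1 or more numbered 1004 (thin-tailed) and 1039 (fat-tailed). At least 100 was reached by 94 and 103 loci, or 5.94% and 6.28% of the members, where all chromosomes gave 4.88% and 4.51% of loci of that span. Read depth is unknown. The number of fragments implied by each interval, taken as the value plus and minus 2 SD of a count, had a median of 48.6 (thin-tailed) and 44.3 (fat-tailed). Half-widths of the intervals had medians of 28.7% and 30.1% of the value.

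Because each library had been assembled separately, loci were paired by position. Each locus had to be the other's best match, with at least 0.8 of both spans shared. On chromosome 14, 1211 pairs were formed, of which 680 had FPKM of at least 1 in 1 library and were compared, while 531 lay below 1 in both. Of the remaining loci, 2 in each table had tied partners, 311 (thin-tailed) and 351 (fat-tailed) overlapped a locus without forming a pair, and 59 and 77 overlapped none. Paired loci rarely had the same ends: 137 of 680 (20.1%) did, the thin-tailed locus was longer in 301 and the fat-tailed one in 239.

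The thresholds cut through a continuous range. The shortest loci inside the limit spanned 204 bp in the thin-tailed table (49457592 to 49457795, 1017 FPKM) and 202 bp in the fat-tailed table (60850415 to 60850616, 166 FPKM), and the longest outside it spanned 198 bp (363 FPKM) and 199 bp (161 FPKM). Just inside the overlap limit, at 80.1%, a pair at 33709046 to 33715067 read 17.4 (thin-tailed) and 39.0 FPKM (fat-tailed); just outside, at 79.9%, one at 1839722 to 1845672 read 40.8 and 74.1. At the limit on level, a pair at 35822283 to 35824107 with 1.02 FPKM and a value listed at 0 was compared, and one at 50403061 to 50407755 with 0.993 and 0.912 FPKM was not.

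The most abundant compared loci were ranked by their mean over both libraries, so high levels in both were in part fixed by that choice. Loci without a pair could not enter, and some of these, given further below, were also abundant. The 10 pairs with the highest mean of log2(FPKM + 1) and spans of at least 1000 bp lay in 7 cases beyond 45 Mb, and 8 of the 10 read higher in the fat-tailed library by FPKM but 5 of the 10 by implied fragments. Of these 10 pairs, 6 overlapped no other locus of their table. The locus at 54981354 to 54983763 (2410 bp) was the most abundant, at 10727 FPKM (10598 to 10857) in thin-tailed sheep against 12934 (12792 to 13077) in fat-tailed sheep, a 1.21-fold difference. Within it both tables listed 1 shorter locus of 87 bp, at 0. The locus at 50414657 to 50422495 (7839 bp) had 8467 FPKM (8344 to 8591) in thin-tailed and 12406 (12255 to 12557) in fat-tailed sheep, a 1.47-fold difference. Neither interval overlapped that of the other library, and implied fragments gave like ratios, 1.20-fold and 1.44-fold.

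The following 5 loci in this order were between 1.17-fold and 1.57-fold higher in fat-tailed sheep. The locus at 11248548 to 11255730 read 3698 FPKM (3561 to 3834) in thin-tailed sheep against 4342 (4182 to 4502) in fat-tailed sheep, with implied fragments at 0.999-fold. At 59371922 to 59374585 the values were 3366 FPKM (3235 to 3497) and 4684 (4512 to 4856), and at 60263227 to 60269026 they were 3539 (3427 to 3650) and 4434 (4277 to 4590). The last of these had fewer implied fragments in the fat-tailed library, at 0.795-fold. The locus at 54305627 to 54309280 read 2903 FPKM (2842 to 2965) and 3957 (3883 to 4031). It carried an Ensembl identifier in the thin-tailed table only, and pairs listed this way leaned higher, as given further below. The locus at 48287581 to 48290565 read 2105 (2046 to 2164) and 3299 (3224 to 3375). This locus, at 1.57-fold in FPKM, 1.49-fold in implied fragments, differed most among the 7 leading loci.

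The remaining 3 of the 10 did not share that pattern. The locus at 23434523 to 23499097, the longest of them at 64575 bp, read 1826 FPKM (1778 to 1874) in thin-tailed sheep against 1025 (992 to 1059) in fat-tailed sheep, 1.78-fold lower. The locus at 44968310 to 44972818 had 1476 FPKM (1363 to 1588) in thin-tailed and 1167 (1070 to 1264) in fat-tailed sheep, 1.26-fold lower. The locus at 54972215 to 54978686, which ends less than 3 kb before the most abundant one, read 536 FPKM (529 to 543) against 6528 (6255 to 6802), 12.2-fold higher in fat-tailed sheep, while its implied fragments were 24806 and 2277, 10.9-fold lower. The fat-tailed assembly of this locus was 6472 bp long and the thin-tailed one 5774 bp. Within it, both tables listed 4 shorter loci of 71 to 87 bp, all at 0. Its FPKM and its interval width thus gave opposite directions, and a level difference was not established from either.

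**Figure D1:**
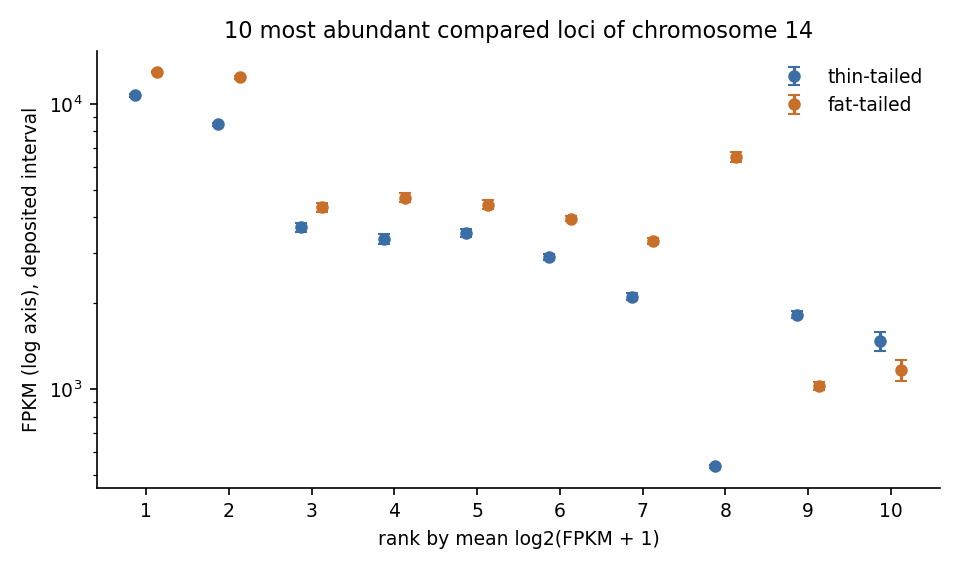
FPKM on a log axis of the 10 most abundant compared loci of chromosome 14 with spans of at least 1000 bp, ordered by mean log2(FPKM + 1). The thin-tailed library is blue and the fat-tailed orange, and bars are the deposited intervals. Loci at ranks 1 to 8 sit higher in the fat-tailed library, with the widest gap at rank 8 (536 and 6528 FPKM), and those at ranks 9 and 10 sit lower.

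The count of higher loci among abundant ones depended on the scaling of the libraries. With FPKM scaled to equal totals over loci of at least 200 bp, or centred on the median of all compared loci, 8 of the 10 stayed higher. With totals equalised over all loci, shorter ones included, 1 of 10 did, because the fat-tailed total was then 9.15 times the thin-tailed one. That scaling moved every ratio by -3.19 on the log2 scale before the added 1 FPKM, and the median of all compared loci from -0.12 to -2.27. Of the 78 pairs whose mean of log2(FPKM + 1) was at or above that of 100 FPKM, 41 (52.6%) read higher in the fat-tailed library as deposited, against 504 (44.8%) of 1125 on the other chromosomes. By implied fragments 29 of the 78 were higher. With the limit at 1000 FPKM, 14 of 19 pairs (73.7%) read higher, against 97 of 159 (61.0%) on the other chromosomes. By implied fragments 10 of those 19 were higher.

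Across the 680 compared pairs, levels in the libraries followed each other closely, with a Spearman correlation of 0.884 for FPKM across loci, which share both libraries and are not independent. The median level was 10.7 FPKM (thin-tailed) and 11.1 (fat-tailed), against 8.87 and 8.20 on the other chromosomes. For each pair 1 FPKM was added to both values, which shrinks the ratios of low loci, and the ratio, fat-tailed over thin-tailed, was put on the log2 scale. Their median on chromosome 14 was 0.015, with quartiles at -0.42 and 0.43, and 348 of 680 pairs (51.2%) lay above 0. The other chromosomes had a median of -0.13 over 12350 pairs, with 43.0% above 0. The difference of the medians was 0.14, small beside the distance between the quartiles, and no test of it was made.

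At least 2-fold higher in fat-tailed sheep were 63 of the 680 loci (9.26%), where all chromosomes gave 8.22%. At least 2-fold lower were 79 (11.6%), where all chromosomes gave 14.7%. The rule that picked the chromosome used these ratios, so nothing is read from the distance to the background. The remaining 538 loci (79.1%) lay within 2-fold. With totals equalised over all loci the counts were 0 higher and 621 lower, and centred on the median of all compared loci they were 73 and 66. Among higher loci 61 had deposited intervals that did not overlap, and among lower loci 72. Over all 680 compared loci it was 329 (48.4%), where all chromosomes gave 50.6%. Listed at 0 in 1 library were 10 higher loci (1.47%, against 1.01% on the other chromosomes) and 17 lower loci (2.5%, against 1.81%). Each had an interval from 0 to 0 in that library. Such an interval lies apart from any that starts above 0, although a 0 can be a failed estimate. Calls and intervals rest on the same values, so these counts are no separate support for the calls.

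Implied fragments could be computed for the 53 higher and 62 lower loci above 0 in both libraries. Their direction was that of the FPKM in 41 and 58. They differed at least 2-fold the same way for 31 higher loci (4.56% of 680, against 3.44% on all chromosomes) and 42 lower loci (6.18%, against 8.89%). Over all 653 compared loci above 0 in both libraries, FPKM and implied fragments had opposite signs in 137 (21.0%). The median ratio by implied fragments was -0.12 on chromosome 14 and -0.17 on the other chromosomes.

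**Figure D2:**
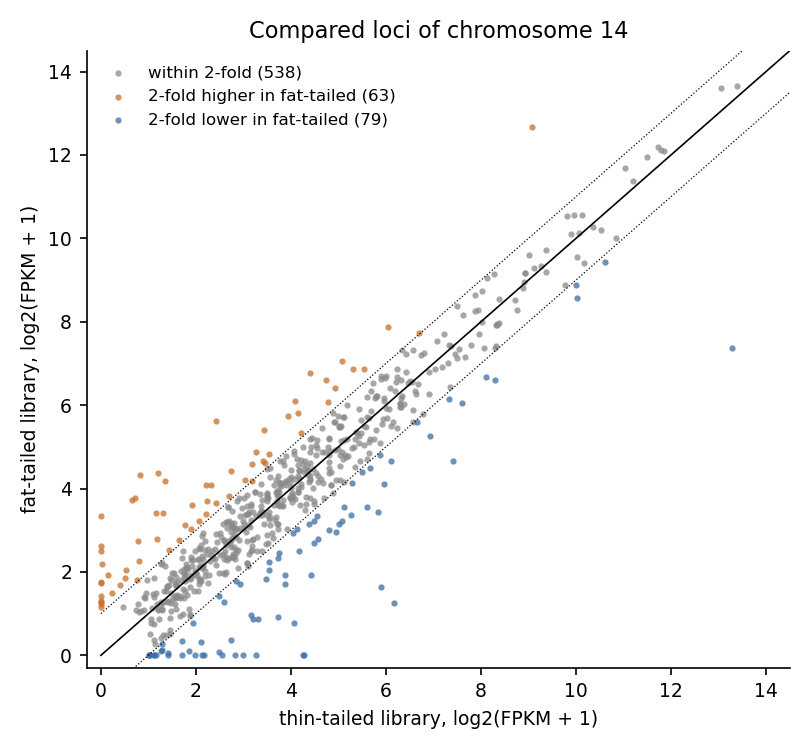
Levels of the 680 compared chromosome 14 loci, log2(FPKM + 1) in the thin-tailed (x) and fat-tailed (y) library; the solid line marks equality and dotted lines 2-fold. Most points (538) lie between the dotted lines, 63 lie above and 79 below, and points on an axis are listed at 0 in 1 library.

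Differences of at least 8-fold on this scale were found for 7 higher loci (1.03%, where all chromosomes gave 0.622%) and 7 lower loci (1.03%, where all chromosomes gave 0.906%). The largest of all, at 53341130 to 53383109, read 9939 FPKM (thin-tailed) and 164 (fat-tailed), but its deposited intervals ran from 0 to 29818 and from 0 to 17269. The intervals overlapped and implied at most 1.00 fragment, so the values did not differ beyond their error. This locus was singled out after its values were seen.

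A narrower set of loci was taken by a rule that required a span of at least 1000 bp, at least 5 FPKM in 1 library and values above 0 in both. It also required a locus clear of all others in its table, intervals that did not overlap, and implied fragments that differed 2-fold the same way. On chromosome 14, 38 of the 680 loci met it, 12 of them higher in fat-tailed sheep and 26 lower. With 1 FPKM added, 10 of the former and 19 of the latter were past 2-fold. No share over all chromosomes is given for this rule, so these counts are not read against a background. The intervals and implied fragments come from the same estimates as the ratios, so the rule adds no separate support. The rule itself asks for a difference, so the 38 are examples only.

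Of the 6 highest ratios in this set, 4 lay between 45 and 55 Mb. Identifiers named among the 6 stood in the thin-tailed table only, each paired with an assembled locus of the fat-tailed table. Pairs listed this way leaned higher, as given further below. ENSOARG00000004573 (800006 to 876910), near the start of the chromosome, read 4.39 FPKM (3.34 to 5.44) in thin-tailed sheep against 48.0 (40.8 to 55.1) in fat-tailed sheep, 10.9-fold in FPKM, 2.59-fold in implied fragments. The locus at 45807767 to 45820851 had 1.48 FPKM (0.783 to 2.18) in thin-tailed and 9.73 (8.47 to 11) in fat-tailed sheep, 6.57-fold in FPKM, 13.1-fold in fragments. The direction in fragments was fixed by the rule, and the sizes by the 2 measures were unequal. Also within the step from 45 to 50 Mb, ENSOARG00000005139 (45689178 to 45698815) had 1.26 FPKM (0.697 to 1.81) in thin-tailed and 5.93 (4.15 to 7.72) in fat-tailed sheep, a 4.73-fold difference, 2.18-fold by fragments.

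Another 2 of the 6 lay in the step from 50 to 55 Mb. The locus at 52758992 to 52762837 read 3.64 FPKM (2.24 to 5.04) in thin-tailed sheep against 16.1 (12.6 to 19.5) in fat-tailed sheep, 4.41-fold in FPKM, 3.27-fold in fragments. The locus at 52899498 to 52916826 had 8.62 FPKM (6.93 to 10.3) in thin-tailed and 28.6 (25 to 32.2) in fat-tailed sheep, 3.32-fold in FPKM, 2.38-fold in fragments. The most abundant of the 6, at 6728979 to 6744221, read 25.7 FPKM (18.9 to 32.4) and 96.2 (83.9 to 108), 3.75-fold in FPKM, 4.29-fold in fragments. With FPKM totals equalised over all loci, 1 of these 6 stayed higher in the fat-tailed library.

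The 6 lowest ratios were spread over 6 different steps of 5 Mb and stayed below 0 under each scaling tried. The lowest, at 1213346 to 1229315, read 70.7 FPKM (62.4 to 79.1) in thin-tailed sheep against 1.37 (0.576 to 2.16) in fat-tailed sheep, 51.7-fold lower in FPKM, 24.3-fold lower in fragments. ENSOARG00000015775 (14836580 to 14870562) had 15.8 FPKM (14.3 to 17.3) in thin-tailed and 0.711 (0.331 to 1.09) in fat-tailed sheep, 22.2-fold lower, on 465 and 14 implied fragments. The locus at 46746615 to 46754716 had 12.3 FPKM (8.23 to 16.3) in thin-tailed and 0.904 (0.215 to 1.59) in fat-tailed sheep, 13.6-fold lower, on 37.0 and 6.89 fragments. In each of these the fat-tailed value rested on 14 fragments or fewer, and the thin-tailed value on more. ENSOARG00000015775 stood in the fat-tailed table only, paired with an assembled thin-tailed locus. Pairs listed that way leaned lower, as given further below.

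The locus at 21124601 to 21257988, the longest of the 6 at 133388 bp, read 5.69 FPKM (5.06 to 6.31) in thin-tailed sheep against 0.291 (0.192 to 0.389) in fat-tailed sheep, 19.6-fold lower in FPKM, 9.62-fold in fragments. ENSOARG00000012258 (54460739 to 54478865) had 8.26 FPKM (5.29 to 11.2) in thin-tailed and 0.833 (0 to 1.80) in fat-tailed sheep, 9.91-fold lower, the latter on 3 implied fragments. It carried the identifier in both tables with identical ends, so its pairing rested on no choice of overlap. Pairs with an identifier in both tables also leaned lower, as given further below. The locus at 33809493 to 33832616 had 13.7 FPKM (12.6 to 14.7) in thin-tailed and 2.80 (2.09 to 3.52) in fat-tailed sheep, 4.88-fold lower in FPKM, 11.6-fold in fragments.

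Along the chromosome, compared loci crowded towards the far end. In steps of 5 Mb the number of compared loci ranged from 12 to 138. The 4 steps beyond 45 Mb held 405 loci, 59.6% of the 680, with a median span of 8099 bp, against 13057 bp for the 275 loci before them. Across the 13 steps the Spearman correlation of the number of loci with their median span was -0.75. Across the 28 steps of 1 Mb with at least 8 compared loci it was -0.092. Over the whole chromosome there were 10.8 compared loci per Mb up to the last locus, at 62.7 Mb, the third of 27 chromosomes after chromosome 11 with 12.2 and chromosome 24 with 11.6. The median span of 9130 bp was the fourth shortest.

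Levels varied less along the chromosome than the number of loci. Step medians ran from 7.44 to 19.7 FPKM (thin-tailed) and from 6.81 to 17.0 (fat-tailed). Loci of at least 100 FPKM were most numerous between 45 and 50 Mb, at 26 of 250 members (thin-tailed) and 27 of 273 (fat-tailed). Between 50 and 55 Mb they were 25 of 275 and 25 of 281. Both steps were among those with the most members, and between 40 and 45 Mb such loci were 7 of 73 and 7 of 78. Between 25 and 30 Mb none reached 100 FPKM in either library.

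**Figure D3:**
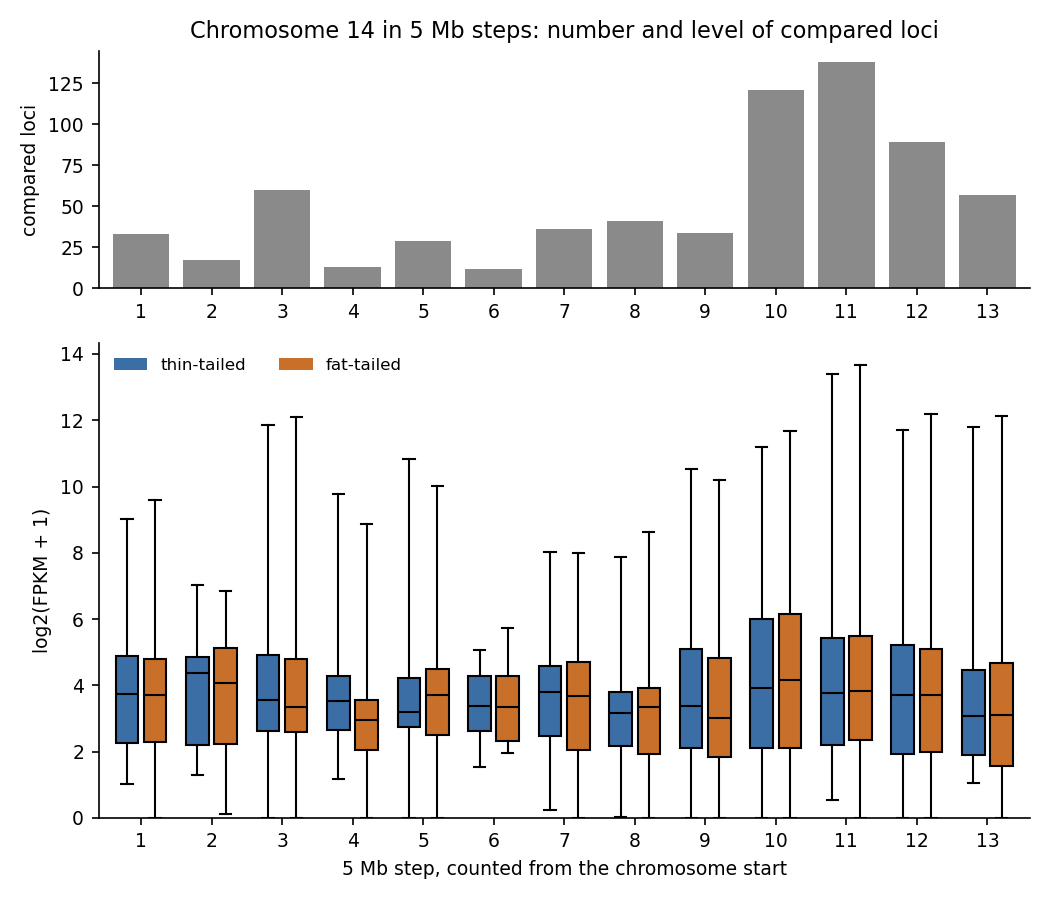
Top, number of compared loci in each 5 Mb step of chromosome 14. Bottom, their levels as log2(FPKM + 1) in the thin-tailed (blue) and fat-tailed (orange) library, with boxes for quartiles and median and whiskers to the lowest and highest locus. Steps 10 and 11 hold 121 and 138 loci, and the boxes of the libraries overlap in every step.

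The ratio showed no steady course along the chromosome. Of the 10 steps with at least 20 compared loci, 7 had medians above 0, between 0.014 and 0.12, and 3 had medians below 0. By implied fragments the medians of these 10 steps ran from -0.38 (20 to 25 Mb) to 0.060 (0 to 5 Mb). The median ratio by FPKM was 0.0072 over the loci before 45 Mb and 0.032 over those beyond it. In 1 Mb steps with at least 8 loci, 19 of 28 medians lay above 0, and they ranged from -0.35 at 24 to 25 Mb (14 loci) to 0.35 at 49 to 50 Mb (31 loci). By implied fragments the median of the latter was -0.066. Ratios of consecutive loci that overlapped no other had a Spearman correlation of 0.043 over 416 neighbour pairs, and of 0.0093 over 7506 on the other chromosomes. Adjacent loci thus shared little of their ratio.

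The highest step median among those with at least 20 loci, 0.12, was that from 35 to 40 Mb, with 4 higher and 3 lower loci among 41. By implied fragments the median of this step was 1.7e-06. Its highest ratio belonged to a 315197 bp locus at 39150782 to 39465978, at 0.0183 FPKM (0 to 0.0394) in thin-tailed sheep against 3.59 (1.60 to 5.57) in fat-tailed sheep, on 3 and 13.1 implied fragments. Its lowest belonged to the locus at 38391623 to 38474491, at 3.48 FPKM (2.81 to 4.14) in the thin-tailed library and listed at 0 in the fat-tailed one. Both overlapped other loci of their tables, whose reads they could share.

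The lowest step median among those with at least 20 loci, -0.32, was that from 20 to 25 Mb, with 5 higher and 6 lower loci among 29. There the locus at 23241322 to 23268279 read 169.5 FPKM (160.3 to 179) in thin-tailed sheep against 24.2 (21.3 to 27.2) in fat-tailed sheep, 6.99-fold lower in FPKM, 5.10-fold in fragments, and it overlapped another locus of its table. The highest ratio of the step, at 21425239 to 21521065, read 0.582 FPKM (0.399 to 0.765) against 12.1 (4.84 to 19.4), 20.8-fold higher by FPKM, whereas its implied fragments were 40.4 and 11.1. The step from 15 to 20 Mb had a lower median still, -0.81, but over 13 loci with a median span of 53010 bp. Over the 9 of these that overlapped no other locus the median was -0.046, and by implied fragments it was -0.034 over 12.

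**Figure D4:**
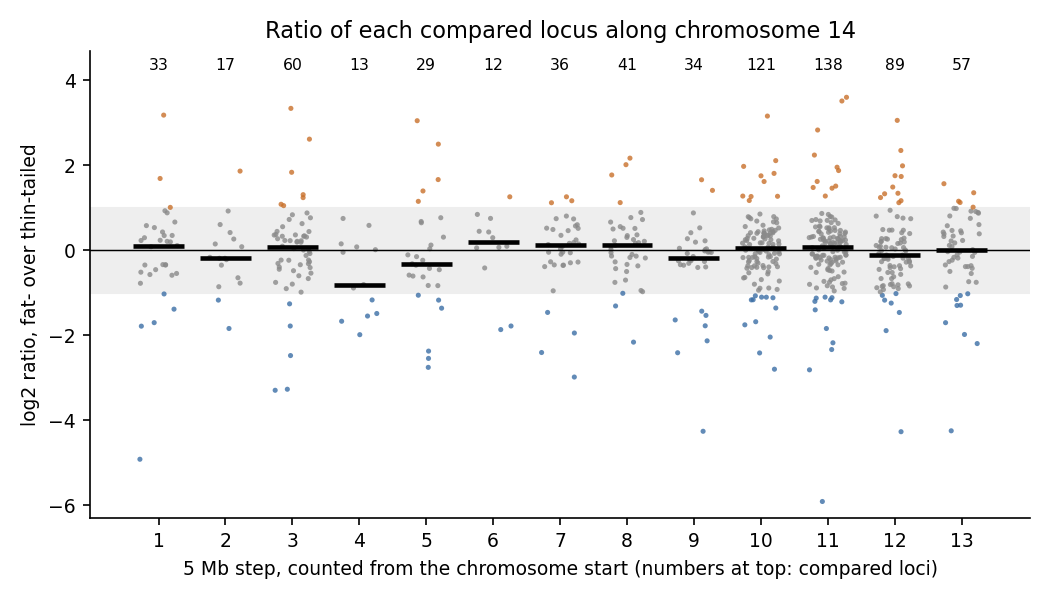
Log2 ratio, fat-tailed over thin-tailed, of each compared locus by 5 Mb step of chromosome 14, with the number of loci at the top; bars are step medians, the grey band marks less than 2-fold, and points are shifted sideways at random. Step medians stay between -0.32 and 0.20 except in step 4 (-0.81, 13 loci), and loci past 2-fold in both directions are found in 12 of the 13 steps.

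Longer loci had slightly lower ratios. The Spearman correlation across the 680 loci was -0.11, against -0.19 across the other chromosomes, and -0.22 and -0.23 by implied fragments. It was -0.13 among the loci before 45 Mb and -0.091 among those beyond. Loci were split into 5 span classes at the quintiles of all compared loci. In the shortest class, up to 1614 bp, the median of chromosome 14 was 0.090 over 116 loci, with 6 loci 2-fold higher and 9 lower. In the longest, above 49003 bp, it was -0.27 over 60 loci, with 5 higher and 16 lower (26.7%).

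At the extremes of span, chromosome 14 and the other chromosomes had like medians: 0.090 and 0.092 in the shortest class, and -0.27 and -0.31 in the longest. In the 3 middle classes the medians of chromosome 14 were 0.040, -0.022 and 0.031, and those of the other chromosomes -0.021, -0.15 and -0.23. The middle class, from 7650 to 19547 bp, held 206 chromosome 14 loci, of which 29 (14.1%) were 2-fold higher, against 7.83% on the other chromosomes, and 24 (11.7%) lower, against 14.3%. Chromosome 14 had few of the longest loci, 8.82% of its compared pairs against 20.6% elsewhere. With the span classes of the other chromosomes weighted as on chromosome 14, 8.16% of their loci were higher and 13.9% lower, beside 9.26% and 11.6% on chromosome 14.

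**Figure D5:**
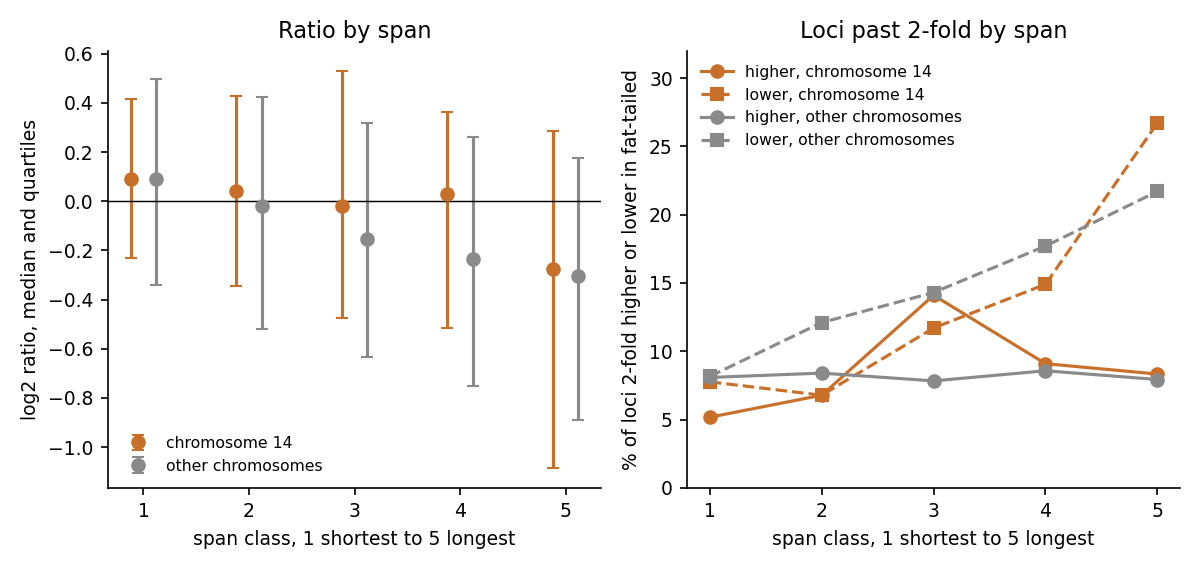
Left, median (points) and quartiles (bars) of the log2 ratio, fat-tailed over thin-tailed, in 5 span classes of chromosome 14 (orange) and of the other chromosomes (grey). Right, percent of loci at least 2-fold higher (circles, solid) or lower (squares, dashed) in the fat-tailed library. The share of lower loci is 7.76% in the shortest and 26.7% in the longest class of chromosome 14, and 8.16% and 21.7% elsewhere, and the medians differ most in the middle classes.

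Ratios also went with how a locus was listed. Where the thin-tailed table carried an Ensembl identifier and the fat-tailed table an assembled locus, the median ratio was 0.89 over 30 loci, with 15 higher and 2 lower. In the reverse case it was -0.50 over 41 loci, with 2 higher and 13 lower. On the other chromosomes the first kind had a median of 0.37 over 298 loci, with 71 higher and 20 lower, and the second -1.01 over 696, with 11 higher and 352 lower. The 576 loci assembled in both tables had a median of 0.037, with 45 higher and 54 lower, and the 33 with an identifier in both had -0.46, with 1 higher and 10 lower. Elsewhere these kinds had 851 higher and 1304 lower of 10573, and 75 higher and 155 lower of 783. Loci that were longer in the fat-tailed assembly included 28 higher and 12 lower ones among 239, and those longer in the thin-tailed assembly 17 higher and 45 lower among 301. The other chromosomes leaned the same way, with 436 higher and 332 lower among 4329, and 339 higher and 1075 lower among 5624. The part of the assembly in these ratios was not tested.

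Overlap between loci touched many of the compared pairs. In 263 of the 680 pairs at least 1 locus overlapped another of its own table, and as the tables give no strand, reads could not be told apart there. These pairs had a median ratio of 0.065, with 27 higher and 34 lower. The 417 that overlapped no other had -0.028, with 36 higher and 45 lower. On the other chromosomes the medians were -0.13 over 4537 pairs with overlap and -0.12 over 7813 without. Higher and lower loci there numbered 463 and 716 with overlap, and 545 and 1115 without. Of the 27 chromosome 14 pairs listed at 0 in 1 library, 18 were among the overlapping ones. The 10 at 0 in the thin-tailed library read 1.25 to 9.15 FPKM in the other, and the 17 at 0 in the fat-tailed library read 1.02 to 18.3.

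Chromosome 11, the chromosome with the next highest median, gave similar values. Its median ratio was -0.031 over 759 loci with a median span of 9932 bp. Of these, 89 (11.7%) were 2-fold higher and 98 (12.9%) lower, both larger shares than on chromosome 14. By implied fragments the medians were -0.14 on chromosome 11 and -0.12 on chromosome 14.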

How the data were processed

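Per the labels' protocols, TRIzol-extracted RNA was enriched for poly(A) and made into Illumina libraries. Per the submitters' processing notes, FastQC, TopHat and Cuffdiff were used (no versions stated); build, annotation and scaling between libraries were not given in the sources used here. FPKM with bounds were deposited by the authors, and the columns are those of a Cufflinks tracking table, per the file headers. Starts were raised by 1. Pairing used mutual best reciprocal overlap of 0.8, with ties dropped. Run on all chromosomes with loci of at least 200 bp, it gave 24252 pairs, 13030 of them compared. It was checked on simulated tables in which only the starts of loci were shifted slightly. These held no split or merged loci, so the check does not cover such loci. Steps and span classes use outer ends and mean spans of a pair. Implied fragments are (2 × FPKM/half-width) squared. They come from the same estimate as the FPKM and are no independent evidence. No test was made. Python 3.11.15, pandas 2.3.3 and numpy 2.4.6 were used. The members, rules and lists were chosen with earlier results of these data known. Named loci were the 10 most abundant, 6 highest and 6 lowest ratios under the stated conditions, and the extremes of the steps with the highest and lowest median. Marker and gene lists need names and were not analysed.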

Additional observations from a re-analysis of the deposited data

Results flagged for a closer look

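Chromosome 14 loci outside every pair held signal that no comparison used. The deposited interval lay above 0 for most loci that overlapped a locus of the other table without being paired, 298 of 311 (thin-tailed) and 332 of 351 (fat-tailed). It lay above 0 for all 59 thin-tailed and all 77 fat-tailed loci that overlapped none. The latter were short and low, with median spans of 818 and 764 bp and medians of 2.35 and 2.72 FPKM, and none carried an Ensembl identifier.

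Among the unpaired loci were some of the most abundant of the chromosome, cut differently in the assemblies. The thin-tailed table listed a single locus of 302102 bp at 56082493 to 56384594, with 2853 FPKM (2721 to 2984) on 1881 implied fragments. Within it the fat-tailed table listed 28074 bp at 56351129 to 56379202 with 1281 FPKM (1218 to 1344) on 1643 and 4646 bp at 56379949 to 56384594 with 403 FPKM (356 to 449) on 298. Further fat-tailed loci that overlapped it were listed at 0 or at no more than 13.8 FPKM. At 51709732 to 51711208 the thin-tailed table had 1207 FPKM on 5499 implied fragments, and the fat-tailed locus at 51708909 to 51711345 had 2125 on 2645, so FPKM and fragments ran in opposite directions. Near the chromosome start, a thin-tailed locus of 30178 bp (391651 to 421828) had 933 FPKM on 2746 implied fragments, and a fat-tailed one of 4618 bp (391843 to 396460) had 366 on 2120. At 38339702 to 38346297 the fat-tailed locus had 866 FPKM on 1949 implied fragments, and the thin-tailed one at 38339927 to 38344690, which missed the overlap limit at 72.2%, had a value between 93.8 and 108 on 793. Their values are given side by side without a ratio, because the listed loci differ in extent.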

How the results depend on the processing

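No paired analysis was possible because the groups hold a single library each. Settings on a minimum of 10 implied fragments, loci assembled in both tables, no minimum span and omitted 5 Mb steps were added after seeing the data. From 63 higher and 79 lower chromosome 14 loci, the counts moved to 31 and 42 with a pseudocount of 5 FPKM, 15 and 23 at 4-fold, 17 and 20 with identical ends, 36 and 45 for loci that overlap no other, 40 and 45 with at least 10 implied fragments in both libraries, and 0 and 621 with FPKM totals equalised over all loci. Several of these keep fewer loci by construction. The median ratio of 0.015 was too close to 0 to hold a sign: it was 0 without a filter on low values, -0.047 at an overlap of 0.95, -0.15 with identical ends, -0.015 for spans of at least 1000 bp, -0.028 for loci that overlap no other, -0.011 with totals equalised over loci of at least 200 bp, -2.29 with totals equalised over all loci, -0.12 by implied fragments, and 0.13 when centred on the median of all compared loci. The distance to the median of the other chromosomes, 0.14, was 0 without the filter, -0.024 with totals equalised over all loci, 0.067 with identical ends and 0.050 by implied fragments; under every other setting run it lay above 0. Omitting any 5 Mb step left it between 0.13 and 0.16. The correlation of ratio with span, -0.11, became 0.028 with identical ends, 0.0028 with totals equalised over all loci and -0.22 by implied fragments. The causes of these moves were not tested.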
